A study of Mus musculus with 16 samples.

Results

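The 10 genes described here are the Notch pathway genes Notch1, Notch2, Notch3, Dll1, Jag1, Jag2, Rbpj, Hes1, Hey1 and Hey2 in the dentate gyrus of aged mice. They were taken by name from tables of 24421 gene names, and all 10 passed the filter on low values that left 17317 genes for testing. The mice were 1-year-old C57BL/6 males, either p16Ink4a +/+ (p16 WT) or p16Ink4a -/- (p16 KO), kept sedentary (CTL) or given a running wheel for 12 days (RUN). Each combination of genotype and treatment, named after both (p16 KO RUN, for example), had 4 libraries of dissected bilateral dentate gyrus, numbered 1 to 16 over all of them, and each library pooled 2 mice, so that variation from mouse to mouse within a group is only seen between pools. The p16 null allele had been made in the FVB strain and bred into C57BL/6, and it leaves p19Arf functional. The deletion is carried by every cell of the animal. p16 is an inhibitor of the cell cycle kinases CDK4 and CDK6, and the study asked which genes accompany the activation of neural stem cells by running in its absence.

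Notch signalling passes between touching cells. A ligand of the Delta (Dll) or Jagged (Jag) family on a sending cell binds a Notch receptor on its neighbour, which is then cut by an ADAM protease and by gamma-secretase. The freed intracellular domain enters the nucleus, joins the DNA-binding protein RBPJ and Mastermind coactivators, and switches on repressors of the Hes and Hey families. In the dentate gyrus the pathway is known for keeping stem cells undifferentiated, and it also acts in astrocytes, endothelium and the mural cells of blood vessels.

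The tissue label was checked with granule neuron markers, of which Prox1 lay between 58.1 and 187 TPM (a level corrected for gene length and library size) and C1ql2 between 199 and 610 TPM. Cdkn2a, the locus of p16, did not exceed 0.586 TPM in any library and so could not tell the genotypes apart here. Relative coverage was lower in every running library (0.621 to 0.893) than in every sedentary library (0.900 to 1.95), so depth and running cannot be told apart. Replicate 2 (p16 WT CTL) and replicates 6 and 7 (p16 KO CTL) stood apart: 9 RNAs held in the nucleus, Malat1 and Meg3 among them, summed to 1151, 703 and 637 TPM there and to between 2007 and 2710 TPM in the other 13 libraries. The comparisons that hold these libraries were also run without them.

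All 10 members were detected in all 16 libraries, at moderate to low levels. Hey1 was the most abundant, with a mean of 57.0 TPM, followed by Jag2 at 21.4, Hes1 at 17.8, Notch2 at 17.0, Rbpj at 15.2, Notch1 at 12.7, Jag1 at 7.43, Dll1 at 4.93, Hey2 at 4.25 and Notch3 at 3.52 TPM. Hey1 exceeded Jag2, Rbpj exceeded Notch1, Notch1 exceeded Jag1 and Jag1 exceeded Dll1 in all 16 libraries. The other neighbours in this order could not be ranked library by library: Jag2 lay above Hes1 in 11 libraries, Hes1 above Notch2 in 9, Notch2 above Rbpj in 11, Dll1 above Hey2 in 10 and Hey2 above Notch3 in 10. The spread was narrowest for Hey1, whose highest library was 1.22 times its lowest, and widest for Jag1, at 2.53 times. Within its role, Notch2 made up 51.1% of the 3 receptors, Jag2 63.5% of the 3 ligands and Hey1 72.2% of the 3 effectors, as means of 16 libraries. The corresponding group means ran from 49.7% to 52.2% for Notch2, from 62.3% to 64.9% for Jag2 and from 69.96% to 74.7% for Hey1.

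**Figure D1:**
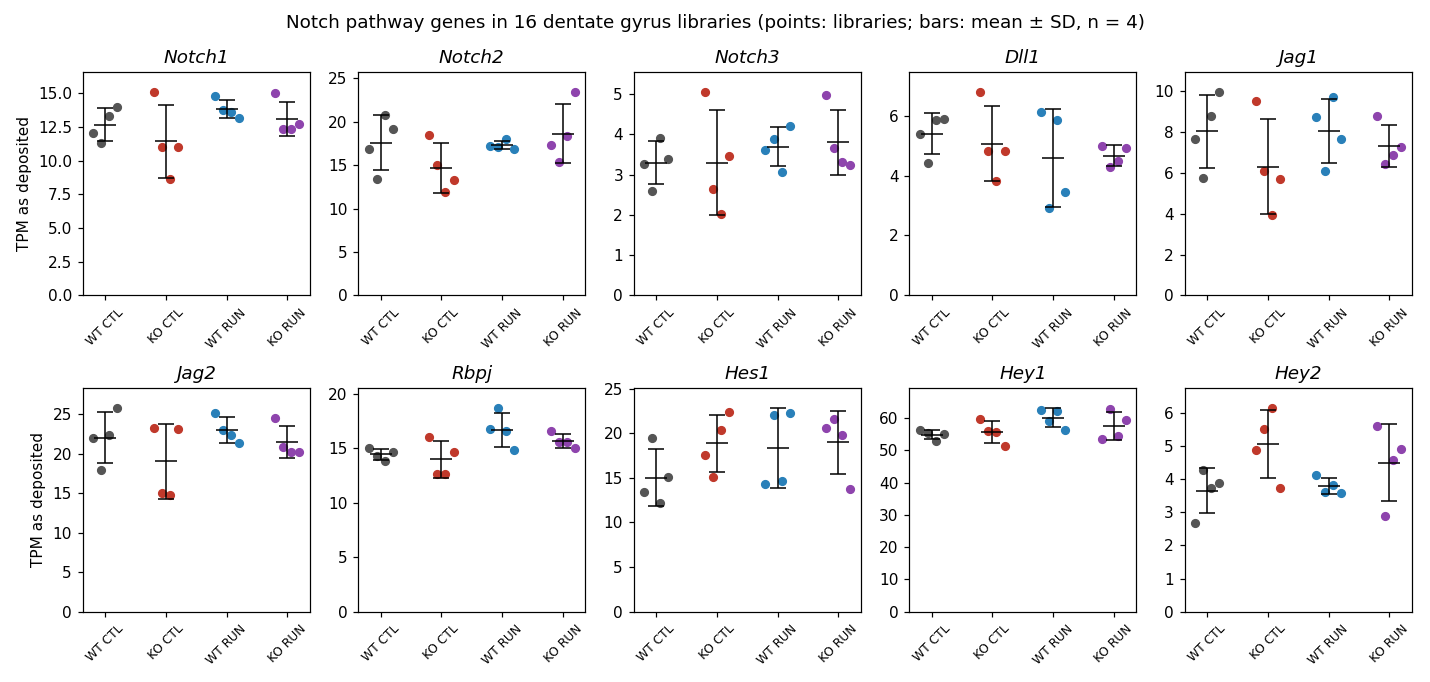
Level of each member in TPM as deposited (vertical axes from 0, a scale of its own per gene) in the 4 groups; points are libraries and bars show mean ± SD of 4 libraries. The groups overlap for nearly every gene, and the p16 KO CTL libraries are the most scattered for Notch1, Notch3, Jag1 and Jag2.

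Among the receptors, Notch1 (mm10, chr2:26457902-26503822, minus strand) is the one most studied in neural stem cells. It was at 12.0, 11.3, 13.3 and 14.0 TPM in the sedentary and 14.8, 13.8, 13.6 and 13.1 TPM in the running p16 WT, and at 15.1, 11.0, 8.64 and 11.0 TPM in the sedentary and 15.0, 12.4, 12.4 and 12.7 TPM in the running p16 KO. The p16 KO CTL group held both the highest and the lowest library, and every group overlapped with every other. Notch2 (chr3:98013538-98150367, plus strand), which is known for holding adult stem cells in quiescence, was at 16.9, 13.4, 20.8 and 19.1 TPM in the sedentary and 17.2, 17.1, 18.0 and 16.9 TPM in the running p16 WT. In the p16 KO it was at 18.5, 15.0, 11.9 and 13.2 TPM without and 17.4, 15.4, 18.3 and 23.4 TPM with running. The p16 WT RUN libraries sat close together within the range of the other groups. Notch3 (chr17:32120893-32166852, minus strand), best known from the mural cells of arteries, was at 3.27, 2.60, 3.90 and 3.40 TPM in the sedentary and 3.62, 3.88, 3.06 and 4.20 TPM in the running p16 WT, and at 5.05, 2.63, 2.03 and 3.46 TPM in the sedentary and 4.98, 3.67, 3.31 and 3.24 TPM in the running p16 KO. All groups overlapped.

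Over both genotypes the fold change of the receptors with running was positive for each but not called: the log2 fold change was 0.14 for Notch1 (95% interval -0.03 to 0.30), 0.13 for Notch2 (-0.08 to 0.34) and 0.17 for Notch3 (-0.14 to 0.49). Without replicates 2, 6 and 7 it was 0.05 for Notch1, 0.03 for Notch2 and -0.04 for Notch3. Among the fits that left out 1 library, Notch1 was called without p16 KO CTL replicate 5 (0.19, limma p 0.012). Within the p16 KO, Notch2 had a mean of 18.6 ± 3.42 TPM (SD, n = 4) with running against 14.7 ± 2.84 when sedentary. Its log2 fold change of 0.28 ± 0.14 (SE) had a limma p of 0.087, an adjusted p of 0.321 and an exact permutation p of 0.171. It passed an unadjusted p of 0.05 only when p16 KO CTL replicate 5 (0.37) or p16 KO RUN replicate 14 (0.35) was left out. The running effect on Notch2 was larger in the p16 KO than in the p16 WT by 0.29 on the log2 scale, with a 95% interval of -0.11 to 0.69 (limma p 0.139, adjusted p 0.797). This difference was 0.39 (limma p 0.0446) without p16 WT CTL replicate 2 and 0.18 without p16 KO RUN replicate 16.

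Of the ligands, Dll1 (chr17:15367354-15375823, minus strand), a Delta ligand that marks activated progenitors and newborn neurons, was at 5.39, 4.43, 5.86 and 5.90 TPM in the sedentary and 6.12, 2.91, 5.84 and 3.46 TPM in the running p16 WT, and at 6.78, 4.83, 3.81 and 4.83 TPM in the sedentary and 5.00, 4.29, 4.47 and 4.91 TPM in the running p16 KO. The p16 WT RUN libraries formed a high pair and a low pair, the latter the 2 lowest of all 16, and the p16 KO RUN libraries lay between these pairs. Jag1 (chr2:137081451-137116520, minus strand), a Jagged ligand present on astrocytes, stem cells and endothelium, was at 7.64, 5.74, 8.80 and 9.95 TPM in the sedentary and 8.72, 6.09, 9.71 and 7.67 TPM in the running p16 WT. In the p16 KO it was at 9.50, 6.10, 3.94 and 5.69 TPM without and 8.76, 6.41, 6.87 and 7.25 TPM with running. Replicate 7 (3.94 TPM) was the lowest of the 16, and all groups overlapped. Jag2 (chr12:112908590-112929495, minus strand), the second Jagged ligand, was at 22.0, 18.0, 22.4 and 25.7 TPM in the sedentary and 25.2, 23.0, 22.4 and 21.3 TPM in the running p16 WT, and at 23.2, 15.0, 14.8 and 23.1 TPM in the sedentary and 24.5, 20.9, 20.3 and 20.2 TPM in the running p16 KO. Its 3 lowest libraries were replicates 2, 6 and 7, and the p16 KO CTL libraries split into a high and a low pair.

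With running, Dll1 had the largest negative fold change of the members, -0.23 on the log2 scale with a 95% interval of -0.53 to 0.07, and it was not called (limma p 0.124, adjusted p 0.406, permutation p 0.154). Without replicates 2, 6 and 7 its fold change was -0.34 (unadjusted p 0.0499), and under quantile normalization it was -0.30 (unadjusted p 0.0413). With each library left out in turn it lay between -0.29 (without p16 WT RUN replicate 9) and -0.14 (without p16 WT RUN replicate 10), and it was called in 1 of these 16 fits. The intervals of Jag1 (0.10, from -0.20 to 0.41) and Jag2 (0.10, from -0.09 to 0.29) included 0, and both values turned negative without replicates 2, 6 and 7. By genotype, Jag1 was at -0.22 (-0.53 to 0.09) and Jag2 at -0.13 (-0.32 to 0.06) in the p16 KO against the p16 WT. Without replicates 2, 6 and 7 Jag1 was at -0.15 and Jag2 at -0.05. Jag1 passed an unadjusted p of 0.05 without p16 KO CTL replicate 5 (-0.30, limma p 0.04).

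Rbpj (chr5:53555779-53657445, plus strand) encodes the DNA-binding protein on which the Notch receptors converge. Its level with running was 16.7, 18.6, 16.6 and 14.8 TPM in the p16 WT and 16.6, 15.5, 15.5 and 15.0 TPM in the p16 KO. In sedentary mice it was 15.0, 14.3, 13.8 and 14.6 TPM in the p16 WT and 16.1, 12.6, 12.6 and 14.7 TPM in the p16 KO. Of the p16 WT RUN libraries, 3 lay above every sedentary library, and the p16 KO RUN libraries overlapped with p16 KO CTL through replicate 5. Over both genotypes Rbpj was higher with running by 0.15 ± 0.057 (SE) on the log2 scale, with a 95% interval of 0.03 to 0.27. It was the 1 member called at an unadjusted p under 0.05, the threshold that the study used (limma p 0.0188, permutation p 0.011 over divisions of the libraries within genotype). Of all genes tested, 17.5% passed the same threshold, and the adjusted p of Rbpj was 0.202 (0.122 to 0.649 over the alternatives). Its fold change passed the unadjusted threshold in each of the 16 fits that left out 1 library. It did not pass under quantile normalization (0.11, p 0.0694) or without replicates 2, 6 and 7 (0.12, p 0.0843). The log2 fold change was 0.19 (-0.01 to 0.40) within the p16 WT and 0.10 (-0.08 to 0.29) within the p16 KO. Without replicates 2, 6 and 7 it was 0.21 within the p16 WT and 0.0090 within the p16 KO. The annotation holds processed pseudogenes of Rbpj, so reads may have been shared between these copies, and the related gene Rbpjl did not exceed 0.698 TPM.

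Of the effectors, Hes1 (chr16:30065357-30067796, plus strand) encodes a repressor that holds back neuronal differentiation genes and oscillates in dividing progenitors. It was at 13.4, 19.5, 12.2 and 15.1 TPM in the sedentary and 14.3, 22.0, 14.7 and 22.3 TPM in the running p16 WT, and at 17.5, 15.1, 20.4 and 22.4 TPM in the sedentary and 20.6, 21.6, 19.8 and 13.8 TPM in the running p16 KO. Both p16 WT groups held high libraries, and all groups overlapped. In sedentary mice its mean was 18.9 ± 3.18 TPM (SD, n = 4) in the p16 KO against 15.0 ± 3.18 in the p16 WT. The log2 fold change was 0.39 ± 0.18 (SE) with a 95% interval of -0.02 to 0.81 (limma p 0.060, adjusted p 0.625, exact permutation p 0.114). Without p16 WT CTL replicate 2 it was 0.55 (unadjusted p 0.00676), without p16 KO CTL replicate 6 it was 0.48 (p 0.0366), and without replicates 2, 6 and 7 it was 0.59 (p 0.0123). The 8 granule neuron markers summed to 1136, 808, 1642 and 1482 TPM in the sedentary p16 WT and to 1292, 1302, 940 and 635 TPM in the sedentary p16 KO. In each of these groups the library with the lowest sum (replicates 2 and 8) was the one with the highest Hes1. The same libraries were the highest of their groups in the 9 oligodendrocyte lineage markers (2056 and 2434 TPM). So they were in the 8 GABAergic interneuron (1567 and 1459 TPM) and 9 CA pyramidal neuron markers (472 and 601 TPM). Other lists went opposite ways in these 2 libraries. The 12 markers of neural stem cells and astrocytes were highest of the group in replicate 2 (4202 TPM) and lowest in replicate 8 (3391 TPM). The 8 microglial markers did the same (503 and 425 TPM). The part of these shifts in the Hes1 difference was not tested. Against the same p16 WT CTL libraries, the p16 KO RUN libraries differed by 0.33 (-0.11 to 0.77). Over both treatments the value for genotype was 0.23 (-0.08 to 0.54).

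Hey1 (chr3:8663359-8667038, minus strand), a repressor of the Hairy-related family expressed in vessels and quiescent stem cells, was at 56.2, 55.3, 52.8 and 55.0 TPM in the sedentary and 62.6, 59.2, 62.1 and 56.4 TPM in the running p16 WT, and at 59.9, 56.0, 55.6 and 51.4 TPM in the sedentary and 53.6, 62.8, 54.3 and 59.3 TPM in the running p16 KO. In TPM as deposited, all 4 p16 WT RUN libraries lay above all 4 p16 WT CTL libraries. The lowest of the first was at 56.4 TPM and the highest of the second at 56.2 TPM. Between these groups 3.34% of all genes tested did not overlap in TPM as deposited. On the scaled values, from which the fold changes come, the groups overlapped for Hey1, with p16 WT CTL replicate 2 above p16 WT RUN replicate 12. The log2 fold change was 0.12 ± 0.057 (SE), with a 95% interval of -0.01 to 0.25 (limma p 0.069, adjusted p 0.985, exact permutation p 0.057). Among the fits that left out 1 library, it passed an unadjusted p of 0.05 without p16 WT CTL replicate 2 (0.15, p 0.0269) or p16 WT RUN replicate 12 (0.14, p 0.0447). It also passed without a filter (0.12, p 0.0343), with TPM as deposited (0.13, p 0.0412) and with the nuclear RNA score as a covariate (0.13, p 0.0224). Its adjusted p was 0.783 or more over the alternatives. Over both genotypes Hey1 had a value of 0.05 (-0.05 to 0.15) for running, the narrowest interval of the members.

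Hey2 (chr10:30832359-30842783, minus strand) encodes a repressor of the same family, best known from the heart and arteries. It was at 2.69, 4.29, 3.73 and 3.89 TPM in the sedentary and 4.14, 3.61, 3.84 and 3.59 TPM in the running p16 WT. In the p16 KO it was at 4.87, 5.53, 6.13 and 3.74 TPM without and 5.61, 2.88, 4.59 and 4.90 TPM with running. In each treatment 3 of 4 p16 KO libraries exceeded all 4 p16 WT libraries, while replicate 8 of the sedentary and replicate 14 of the running p16 KO did not. Over both treatments Hey2 was higher in the p16 KO by 0.36 ± 0.146 (SE) on the log2 scale, a fold of 1.29, with a 95% interval on the log2 scale of 0.05 to 0.67. This passed the unadjusted threshold (limma p 0.024, permutation p 0.030) but not adjustment over all genes (adjusted p 0.696, and 0.456 to 0.993 over the alternatives), and 6.94% of all genes tested passed the unadjusted threshold. It passed in 13 of the 16 fits that left out 1 library, but not without replicate 1 (0.29), 7 (0.30) or 13 (0.32). It also did not pass with the nuclear RNA score as a covariate (0.27, p 0.0639) or without replicates 2, 6 and 7 (0.27, p 0.0832).

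Between the sedentary groups alone, Hey2 was at 5.07 ± 1.025 TPM in the p16 KO and 3.65 ± 0.681 TPM in the p16 WT (SD of 4 libraries). The log2 fold change was 0.52 ± 0.215 (SE), a fold of 1.43, with a 95% interval on the log2 scale of 0.03 to 1.01 (limma p 0.0385, adjusted p 0.625, exact permutation p 0.057). This call held in 2 of the 8 fits that left out 1 library, and the value ranged from 0.39 to 0.66 over them. It was 0.36 (p 0.159) without replicates 2, 6 and 7, of which 6 and 7 held the 2 highest Hey2 levels of p16 KO CTL. Between the running groups the log2 fold change was 0.21 (-0.21 to 0.63), and it passed an unadjusted p of 0.05 only without replicate 14 (0.39, p 0.0138). The running effect on Hey2 differed between the genotypes by -0.31 with a 95% interval of -0.93 to 0.31.

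The region before the start of Hey2 is shown because Hey2 was the member called by genotype and the only member whose promoter window holds the RBPJ motif, GTGGGAA on either strand. Windows from 250 bases before to 50 after the start, from RefSeq on GRCm38.p6, were at hand for 8 of the 10 members, not for Hes1 and Hey1. The motif occurs in 6.39% of all 32544 such windows. In the stretches below, read 5′ to 3′ along the gene, capitals mark the motif. Hey2 is given from base -250 to base 3 (chr10:30842781-30843033, minus strand), with matches starting at -207 and at -4, the latter across the start. Hes5, another Hes repressor of the pathway, is given from -234 to -69 (chr4:154960689-154960854, plus strand), with matches starting at -226 and -83.
Hey2: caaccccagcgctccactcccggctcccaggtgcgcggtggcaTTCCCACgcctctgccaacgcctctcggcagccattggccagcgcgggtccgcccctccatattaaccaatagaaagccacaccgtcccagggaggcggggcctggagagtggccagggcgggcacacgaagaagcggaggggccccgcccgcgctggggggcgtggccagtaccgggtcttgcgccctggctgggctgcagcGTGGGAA
Hes5: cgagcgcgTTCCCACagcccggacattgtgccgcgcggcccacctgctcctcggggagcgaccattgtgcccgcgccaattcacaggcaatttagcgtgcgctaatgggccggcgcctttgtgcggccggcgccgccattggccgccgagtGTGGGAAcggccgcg
Both genes hold 1 match on each strand. The motif CACGTG bound by Hey proteins was found in no member window and in 7.17% of all windows, and the motif CACNAG bound by Hes proteins was found in 4 members (Notch1, Notch2, Notch3 and Dll1) and in 42.6% of all windows, where matches on opposite strands can overlap. These are matches of letters, and binding was not measured.

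The libraries of low nuclear RNA lay to one side of the rest for most members. In TPM as deposited, Notch1, Notch2, Notch3, Dll1, Jag1, Jag2, Rbpj and Hey1 lay below the median of the other 13 libraries in replicates 2, 6 and 7 alike. For Notch3 all 3 were below the lowest of the other 13 (2.60, 2.63 and 2.03 TPM against 3.06 or more), and so they were for Jag2 (18.0, 15.0 and 14.8 TPM against 20.2 or more). Hey2 lay above that median in all 3, at 4.29, 5.53 and 6.13 TPM against a median of 3.84. The factors used to scale the libraries were lowest in replicates 2, 6 and 7 (0.955, 0.943 and 0.920). On the scaled values Hey1 lay above the median of the other 13 in all 3, and Dll1 in replicate 6. The other genes named kept their side of it. Cell type markers moved in these libraries too. The 10 endothelial markers summed to 79.4, 58.9 and 57.7 TPM against 103 to 151 TPM in the other 13, and the 12 markers of neural stem cells and astrocytes summed to 4202, 5016 and 4689 TPM against 3348 to 4077 TPM. The 8 microglial markers summed to 503, 613 and 567 TPM against 396 to 480 TPM. The 10 mural cell markers summed to 100, 84.2 and 85.3 TPM against 100 to 145 TPM, and the 9 choroid plexus markers to 215 TPM in replicate 7 against 17.1 to 63.8 TPM elsewhere. The part of these shifts in the members' differences was not tested, and in bulk RNA fewer cells of a type and less RNA per cell cannot be told apart.

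**Figure D2:**
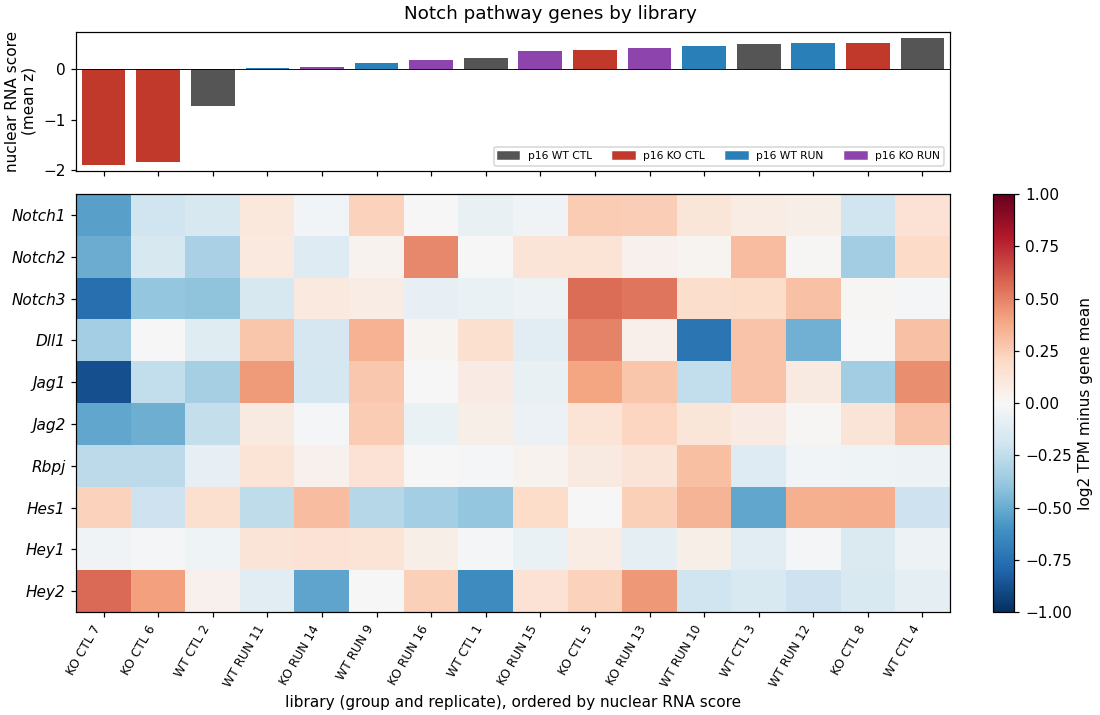
Upper panel, nuclear RNA score of each library (mean z-score of 9 RNAs held in the nucleus), coloured by group; lower panel, log2 TPM of each member minus that gene's mean over 16 libraries, in the same order of libraries. Replicates 7, 6 and 2 at the left have the lowest scores and are blue for Notch3 and Jag2 and red for Hey2.

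Across the pairwise comparisons few members passed the study's threshold. In p16 KO RUN against p16 KO CTL, which asks what running did without p16, 0 of 10 members were called by limma at an unadjusted p under 0.05, against 18.5% of all genes tested. In p16 KO CTL against p16 WT CTL, 1 of 10 was called (Hey2), against 6.69%. In p16 WT RUN against p16 WT CTL it was 0 of 10 against 4.81%, in p16 KO RUN against p16 WT CTL 0 of 10 against 8.63%, and in p16 KO RUN against p16 WT RUN 0 of 10 against 3.87%. The running effect differed between the genotypes for 0 of 10 members, against 5.48% of all genes tested. No member passed an adjusted p of 0.05 in any comparison or alternative, and with running over both genotypes 0.797% of all genes tested did. The comparisons share groups, so their values are not independent of each other.

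The median log2 fold change of the members was 0.10 for running over both genotypes, against 0.01 for all genes tested, and -0.01 for genotype, against -0.0028. The signs of the members were 8 positive and 2 negative for running, and 5 of each for genotype. The median for running was 0.04 without replicates 2, 6 and 7, with 6 positive and 4 negative (Notch3, Jag1, Jag2 and Dll1), and with the nuclear RNA score as a covariate it was 0.05, with 7 positive and 3 negative. Groups that did not overlap in TPM were found for Hey1 in p16 WT RUN against p16 WT CTL, as above, and for Rbpj in p16 KO RUN against p16 WT CTL, where the lowest of the first (15.04 TPM) lay just above the highest of the second (14.99 TPM). The Rbpj log2 fold change there was 0.11 (-0.04 to 0.27), and 5.56% of all genes tested did not overlap in TPM between these groups. Both separations held in TPM as deposited only: on the scaled values the groups overlapped for Hey1 and for Rbpj. The exact permutation p of Rbpj, from scaled values, was 0.086. No member was free of overlap in p16 KO RUN against p16 KO CTL (10.0% of all genes tested), in p16 KO CTL against p16 WT CTL (2.81%) or in p16 KO RUN against p16 WT RUN (2.49%).

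In p16 KO RUN against p16 KO CTL, the comparison with the most calls over all genes, the members' values depended on single libraries. Notch1 was at 0.16 (-0.16 to 0.47), Jag1 at 0.21 (-0.28 to 0.70) and Rbpj at 0.10 (-0.08 to 0.29) on the log2 scale. Replicate 5 was the highest p16 KO CTL library in TPM as deposited for Notch1, Notch2, Notch3, Dll1, Jag1, Jag2, Rbpj and Hey1. On the scaled values replicate 8 was the highest for Jag2 and replicate 7 for Hey1. Without replicate 5, Notch1 (0.27), Notch2 (0.37) and Jag1 (0.40) passed an unadjusted p of 0.05, 3 of 10 members. In the same fit 27.4% of all genes tested passed. Other libraries moved them the other way: without p16 KO CTL replicate 7, Notch1 was at 0.05 and Jag1 at 0.03, and without p16 KO RUN replicate 16, Notch2 was at 0.17. Without replicates 2, 6 and 7, Notch1 was at 0.0023, Rbpj at 0.0090 and Notch2 at 0.21, and Jag1 turned to -0.03.

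**Figure D3:**
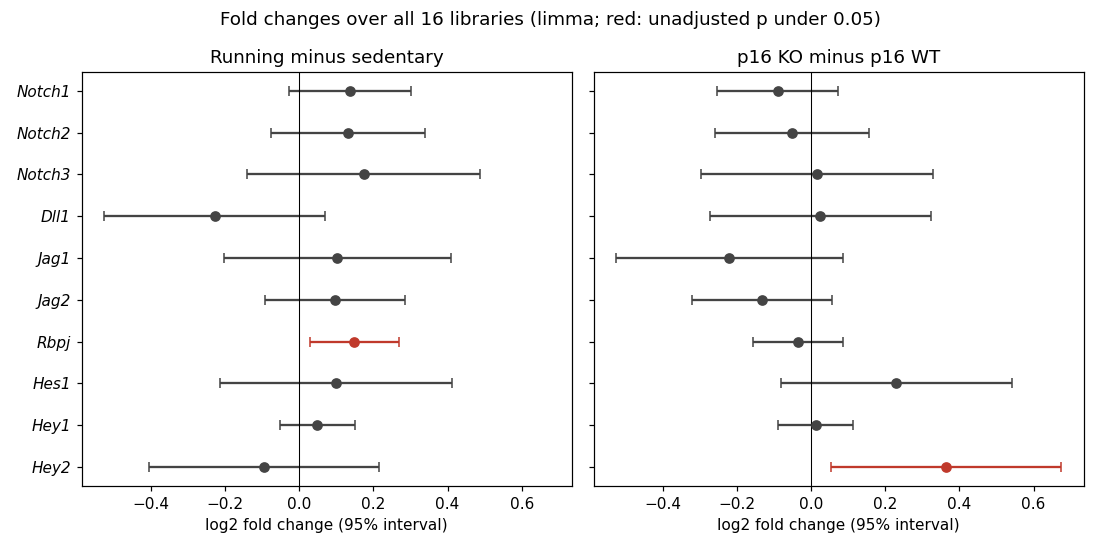
Log2 fold change of each member with its 95% interval (limma, 16 libraries), for running against sedentary over both genotypes (left) and p16 KO against p16 WT over both treatments (right). Only Rbpj with running (0.15) and Hey2 by genotype (0.36) have intervals that leave out 0.

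The wider pathway was described with 54 further genes grouped by role. With running over both genotypes 14 of the 54 were called at an unadjusted p under 0.05, 7 higher and 7 lower, where 17.5% of all genes tested were called, and the median log2 fold change was 0.05. Furin, the convertase that cleaves Notch receptors as they mature, was higher by 0.25 ± 0.052 (SE; adjusted p 0.0396), with levels of 29.8 to 35.1 TPM in the running groups and 22.9 to 28.8 TPM in the sedentary ones. It was the 1 gene of the 54 that passed adjustment. Over the 25 alternatives it passed in 11, with an adjusted p from 0.0222 to 0.221. Neurl1b, described below, passed adjustment in 3 of these 25, with an adjusted p from 0.0429 to 0.449. Without replicates 2, 6 and 7, 6 genes were called (8.73% of all genes tested), all among the 14, and Furin (0.21, unadjusted p 0.00165) was 1 of them.

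The calls with running are given by role below, where 17.5% of all genes tested were called. The lists are short, and no role was tested as a set. Called were 3 of 4 genes that ubiquitinate ligands for endocytosis: Mib1 was higher (0.12), and Neurl1b (-0.25) and Neurl1a (-0.11) were lower. Of 9 proteases 3 were called, with Furin and the ADAM sheddase Adam17 (0.15) higher and the gamma-secretase subunit Psenen (-0.12) lower. Of 13 coactivators and corepressors 4 were called, with the Mastermind gene Maml3 (0.39) and the acetyltransferase gene Crebbp (0.20) higher, and the RBPJ-binding coregulator Snw1 (-0.16) and the RBPJ corepressor Bend6 (-0.17) lower. Of 11 genes of turnover and inhibition 2 were called, Dtx1 (0.14) and Numbl (0.14), both higher. Of 7 further targets (Nrarp counts here and among the genes of turnover) 2 were called, Id4 (-0.35) and Sox9 (-0.26), both lower, and both are genes of stem cells and astrocytes. None of 6 further receptors and ligands and none of 5 sugar transferases was called by limma at the unadjusted threshold. Without replicates 2, 6 and 7, 8.73% of all genes tested were called. The calls by role in that fit were 2 of 4 for ligand ubiquitination (Mib1 and Neurl1b), 1 of 9 proteases (Furin) and 1 of 13 coactivators and corepressors (Maml3). They were 1 of 11 genes of turnover (Dtx1) and 1 of 7 targets (Id4, at -0.21). The other 8 lost their call there: Sox9 was at -0.13 (unadjusted p 0.0698), Crebbp at 0.068, Bend6 at -0.082, Snw1 at -0.090, Adam17 at 0.082, Psenen at -0.033, Neurl1a at -0.041 and Numbl at 0.14 (unadjusted p 0.0532). The markers of neural stem cells and astrocytes, Sox9 among them, summed higher in these 3 libraries, as above. With the nuclear RNA score as a covariate, Sox9 (-0.17, limma p 0.0135) and Snw1 (-0.10, limma p 0.0128) kept their call. So did Bend6 (-0.11, limma p 0.0303) and Numbl (0.12, limma p 0.044), but not Crebbp, Adam17, Psenen or Neurl1a. Adam17, Psenen, Maml3, Crebbp, Neurl1a and Numbl were named after their values were seen, to make these counts complete.

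**Figure D4:**
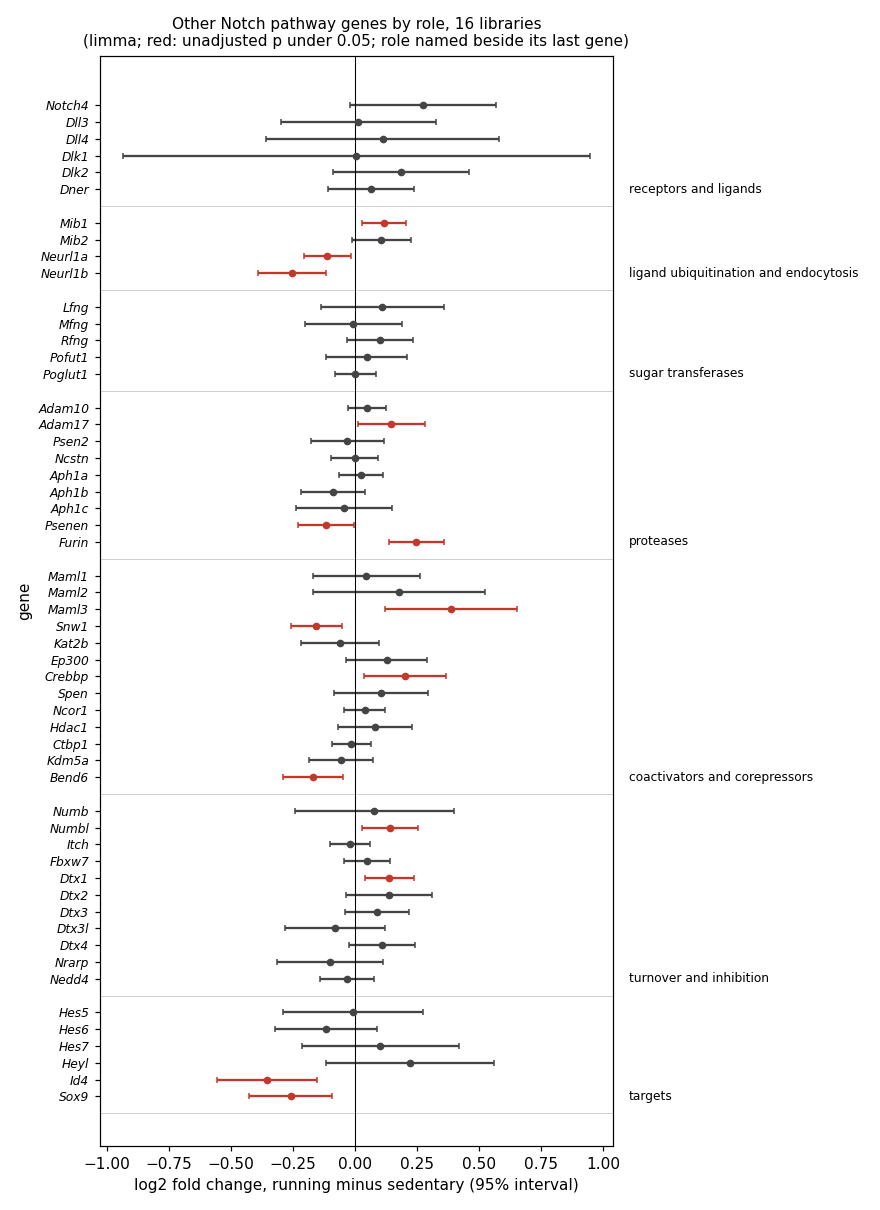
Log2 fold change with running over both genotypes and its 95% interval (limma, 16 libraries) for the 54 further genes of the pathway, grouped by role; red marks an unadjusted p under 0.05. The 14 red genes lie on both sides of 0, with Maml3 (0.39) at one end and Id4 (-0.35) at the other.

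In p16 KO RUN against p16 KO CTL 13 of the 54 were called (24.1%, against 18.5% of all genes tested), 8 higher and 5 lower. The count was 6 without replicates 2, 6 and 7, where 8.49% of all genes tested were called. The smallest p belonged to Sox9 (-0.43), Neurl1b (-0.36), Furin (0.28), Id4 (-0.44), Bend6 (-0.25) and the Fringe gene Rfng (0.23), with adjusted p from 0.124 to 0.185. Of these, Id4 (-0.27) and Rfng (0.13) lost their call without replicates 2, 6 and 7, where Sox9 was at -0.30 and Furin at 0.19. In p16 KO CTL against p16 WT CTL 4 were called (7.41%, against 6.69% of all genes tested): Neurl1b (0.24), Sox9 (0.29) and the acetyltransferase gene Kat2b (0.23) were higher and Ncstn (-0.15), a gamma-secretase subunit, was lower, all at an adjusted p of 0.625. Kat2b (0.28, unadjusted p 0.054) and Ncstn (-0.15, unadjusted p 0.123) lost their call without those libraries. In p16 WT RUN against p16 WT CTL 4 were called (7.41%, against 4.81%), Furin (0.21), Dtx1 (0.18) and Mib1 (0.15) higher and Snw1 (-0.15) lower, and of these Furin (0.23) kept its call without replicate 2. In p16 KO RUN against p16 WT RUN Psen2 (-0.21) was the 1 called gene (1.85%, against 3.87%), and in p16 KO RUN against p16 WT CTL 6 were called (11.1%, against 8.63%), 5 higher and 1 lower. The running effect differed between the genotypes for 3 of the 54 at the unadjusted threshold (5.56%, against 5.48% of all genes tested; adjusted p 0.797 each): it was larger in the p16 KO for Ncstn (0.21) and for Rfng (0.26), and lower for Sox9 (-0.33). By genotype over both treatments 3 were called (5.56%, against 6.94%), Neurl1b (0.14) and Hes7 (0.37, named after its values were seen) higher and Psen2 (-0.18) lower in the p16 KO. Of the 16 fits that left out 1 library, Psen2 was called in each and Neurl1b in 5. When replicates 2, 6 and 7 were left out together (5.09% of all genes tested called), Hes7 (0.43) kept its call, while Neurl1b was at 0.12 (unadjusted p 0.128) and Psen2 at -0.14 (unadjusted p 0.0909).

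Notch4, the endothelial receptor, lay between 1.20 and 2.39 TPM, and Dll4, the endothelial Delta ligand, between 0.560 and 2.33 TPM. Heyl, the Hey gene known from mural cells, lay between 0.869 and 1.82 TPM. Hes5, which is used as a readout of Notch activity in neural stem cells, lay between 13.4 and 24.0 TPM (Hes1 between 12.2 and 22.4 TPM), with means of 17.5 ± 4.47 TPM (SD, n = 4) in sedentary and 19.2 ± 4.37 in running p16 WT mice, and of 19.0 ± 3.31 in sedentary and 17.9 ± 2.68 in running p16 KO mice. None of these 4 genes was called in any of the 8 comparisons by limma at an unadjusted p under 0.05.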

How the data were processed

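The members and the lists of other pathway genes and markers were chosen with earlier results of these data known. TPM values, as deposited by the authors, are StringTie abundances per gene, corrected for length and summing to the same total in each library. FPKM values deposited by the authors differ from TPM by one factor per library and were left unused. Coverage values, as deposited by the authors, are mean read coverage per base and served only for relative depth. The authors' sources name demultiplexing with bcl2fastq 2.20, trimming with cutadapt 1.11 and ERNE, and alignment to mm10 with STAR, from strand-marked libraries (fr-secondstrand). The versions of STAR and StringTie are not given in the sources used here. The tables hold no read counts, so counting error is unknown and no count model was used, although the study's own tests were on counts.

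Where a name had several entries (112 to 130 names in a library), their values were added up. Libraries were scaled by median ratios to their average, from 13226 genes at 1 TPM or more throughout. Genes averaging 0.1 TPM or more were tested with limma 3.58.1 in R 4.3.3 (eBayes with a variance trend) on log2(scaled TPM + 0.1), which understates the change of low genes, with Benjamini-Hochberg adjustment over all 17317 genes. A call is an unadjusted p under 0.05, as in the study, given beside the adjusted p. Pairwise comparisons used the 8 libraries of their 2 groups. Running over both genotypes, genotype over both treatments and their interaction used all 16. Two-sided exact permutation tests over libraries were run for single members (35 divisions of 8 libraries, smallest p 0.0286, and 4900 divisions within strata for 16 libraries), and 10 members in 7 comparisons (all but the interaction) make 70 such tests. TPM levels and overlaps are as deposited, and differences come from scaled values. Libraries of a group came from separate pools of mice. No batch is named in the labels.

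All 10 members are named, with Cdkn2a as the deleted gene. Some pathway genes are not reported here. Of the 54 other pathway genes that are, the rule names those with an unadjusted p under 0.05 in the interaction or in a pairwise comparison other than p16 KO RUN against p16 WT CTL, at most the 6 of smallest p in each, and also Hes5, Heyl, Notch4 and Dll4. Gene positions are those of the deposited tables on mm10. Alternatives were a filter at 1 TPM or none, unscaled TPM, quantile normalization, a pseudocount of 1 or 0.01, no variance trend, the nuclear RNA score (mean z-score of 9 RNAs) as a covariate, all 16 libraries in one fit, and each library left out in turn. Leaving out replicates 2, 6 and 7 together was chosen after seeing the data. The fit was tested on simulated data before use. Figures were drawn with matplotlib 3.10.9.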

Additional observations from a re-analysis of the deposited data

Results flagged for a closer look

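Within p16 KO RUN, replicate 13 lay far from the other 3 libraries for Notch1 (15.005 TPM, with a gap to its nearest neighbour of 0.878 of the group's range) and for Jag2 (24.529 TPM, 0.843 of the range). These were 2 of 40 gene and group combinations checked, and chance flags about 1 in 20. For 3 further pathway genes the running effect differed between p16 KO and p16 WT at an unadjusted p under 0.05 of the interaction (limma, adjusted p 0.797 each): by 0.261 on the log2 scale for Rfng, by 0.207 for Ncstn and by -0.335 for Sox9. No member was among them.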

How the results depend on the processing

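No paired analysis was possible because the groups share no replicate numbers. Of 73 fold changes followed (38 of members, 35 of other pathway genes) over 1613 values under alternatives, 1406 kept their direction and their side of an unadjusted p of 0.05, 145 no longer passed, 36 newly passed and 26 turned, and 64 fold changes never turned. Where a value changed, the cause was not tested. The pairwise comparisons are written here as first group against second.

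Members called. A percentage in brackets is the share of all genes tested that was called in the same fit. For p16 KO CTL against p16 WT CTL the count of 1 became 0 without a filter (5.28%), with TPM as deposited (6.43%) and with the nuclear RNA score as a covariate (4.26%). For p16 WT RUN against p16 WT CTL the count of 0 became 2 without a filter (4.57%) and with TPM as deposited (4.70%), and 1 with the nuclear RNA score (5.65%), with all 16 libraries in one fit (5.64%) and without replicates 2, 6 and 7 (5.88%). For p16 KO RUN against p16 WT CTL the count of 0 became 1 without a filter (7.08%), without the variance trend (8.24%) and with the nuclear RNA score (11.7%), and 2 without replicates 2, 6 and 7 (11.2%). For genotype over both treatments the count of 1 became 0 with the nuclear RNA score (4.86%) and without replicates 2, 6 and 7 (5.09%). With running the count of 1 stayed 1 under these settings, but the member was Dll1 instead of Rbpj under quantile normalization (17.2%) and without replicates 2, 6 and 7 (8.73%). With each library left out in turn the counts ranged from 0 to 3 for p16 KO RUN against p16 KO CTL, 0 to 2 for p16 KO CTL against p16 WT CTL, 0 to 2 for p16 WT RUN against p16 WT CTL, 0 to 2 for p16 KO RUN against p16 WT CTL, 0 to 1 for p16 KO RUN against p16 WT RUN, 0 to 1 for the interaction, 1 to 2 for running and 0 to 3 for genotype.

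Other pathway genes called. For p16 KO RUN against p16 KO CTL the count of 13 became 8 with the nuclear RNA score (11.7%) and 6 without replicates 2, 6 and 7 (8.49%). For p16 KO CTL against p16 WT CTL the count of 4 became 2 with the nuclear RNA score (4.26%) and 7 when all 16 libraries were fitted together (12.7%). With no variance trend the count of 4 for p16 WT RUN against p16 WT CTL became 1 (4.68%) and that of 1 for p16 KO RUN against p16 WT RUN became 0 (4.05%), and the last became 2 with TPM as deposited (3.75%), quantile normalization (3.93%) or the nuclear RNA score (4.31%). Without replicates 2, 6 and 7 the count became 5 for the interaction (7.25%), 6 for running (8.73%) and 1 for genotype (5.09%), and with the nuclear RNA score it became 1 for the interaction (4.10%). With each library left out in turn the counts ranged from 7 to 22, 1 to 9, 0 to 7, 4 to 9 and 0 to 3 for the pairwise comparisons in the order above, from 1 to 11 for the interaction and from 1 to 5 for genotype. In these fits, for members and other pathway genes alike, the share of all genes tested that were called ranged from 11.7% to 27.4%, 3.22% to 17.5%, 3.07% to 5.88%, 6.53% to 11.2% and 2.81% to 6.05% for the pairwise comparisons, from 3.57% to 13.7% for the interaction, from 13.1% to 21.0% for running and from 4.04% to 10.7% for genotype.

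Fold changes that turned were as follows. For running, without replicates 2, 6 and 7, they were -0.037 for Notch3, -0.087 for Jag1, -0.066 for Jag2 and 0.099 for Hey2, and with the nuclear RNA score -0.022 for Jag1, -0.022 for Jag2 and 0.026 for Hey2. For genotype they were 0.0015 for Notch2 with the nuclear RNA score; -0.017 for Notch3, -0.0085 for Dll1 and -0.022 for Hey1 with TPM as deposited; and -0.021 with the nuclear RNA score and -0.014 without replicates 2, 6 and 7 for Hey1. For p16 KO RUN against p16 KO CTL, Jag1 was at -0.034 without replicates 2, 6 and 7. With each library left out in turn, Hey2 ranged from -0.17 to 0.0018 for running, and for genotype Notch3 ranged from -0.076 to 0.10, Dll1 from -0.064 to 0.091 and Hey1 from -0.0068 to 0.035. The tables hold no counts, so depth behind the low members (Notch3, Hey2 and Dll1) is unknown.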
